A study of Mus musculus with 8 samples.

Results

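Transcripts of 8 genes of interleukin-1 (IL-1) biology were followed in mouse lung leukocytes after silica: the ligand genes Il1a, Il1b, Il18 and Il33, the antagonist gene Il1rn, the receptor genes Il1r1 and Il18r1, and the inflammasome sensor gene Nlrp3. They were chosen by gene symbol, all 8 had a probe on the array, each had exactly 1, and they were 8 of 11597 genes tested. Leukocytes were released from digested lungs and collected on a Percoll gradient, and their RNA was hybridised on 8 arrays in 4 groups of 2. The groups were RagKO mice given silica, RagKO mice given saline, wild-type (WT) C57Bl/6 mice given silica and WT mice given saline, all labelled as 6 to 8 weeks old. RagKO mice carried Rag1-/- and therefore make no mature T or B cells, and they also received injections of 300 µg of an antibody against NK1.1 to remove natural killer (NK) cells, with or without silica. The gene deletion and the NK depletion could thus not be told apart, and the labels name a strain for the WT mice only. Instillation through the nose was done 1 time a week for 4 weeks, with 1 mg of crystalline silica in 25 µl or with saline alone.

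IL-1α and IL-1β are cytokines that signal through the type 1 IL-1 receptor encoded by Il1r1, and the antagonist encoded by Il1rn occupies the same receptor without signalling. Crystalline silica taken up by macrophages damages lysosomes and is a classical trigger of the NLRP3 inflammasome, a complex in which caspase-1 cuts the precursors of IL-1β and IL-18 into their active forms. IL-1α and IL-33 are alarmins that are active when released from damaged cells, and IL-33 is stored in the nuclei of epithelial and stromal cells of the lung. Cleavage and release of these cytokines are not seen by an RNA measurement.

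The upstream sequences of 3 ligand genes are shown because the neighbouring genes Il1a and Il1b on chromosome 2 differed in their response to silica, and because Il33 showed the greatest genotype difference of the 8. Sequences are the 250 bases before an annotated start site (RefSeq, GRCm38.p6), written 5′ to 3′ on the strand of the gene. Il33 has 2 annotated windows, which its single probe does not tell apart. Capitals mark matches to TATAAA, to TGANTCA (a pattern that includes the AP-1 site) or to the NF-kB consensus. Both strands were searched, and no 2 marked matches overlap.
Il1a, chr2:129309973-129310222, minus strand: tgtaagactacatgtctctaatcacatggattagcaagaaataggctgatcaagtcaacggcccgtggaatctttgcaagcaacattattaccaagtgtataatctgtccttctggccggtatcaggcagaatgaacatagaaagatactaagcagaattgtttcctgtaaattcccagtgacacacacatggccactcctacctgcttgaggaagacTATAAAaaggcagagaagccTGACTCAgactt
Il1b, chr2:129371140-129371389, minus strand: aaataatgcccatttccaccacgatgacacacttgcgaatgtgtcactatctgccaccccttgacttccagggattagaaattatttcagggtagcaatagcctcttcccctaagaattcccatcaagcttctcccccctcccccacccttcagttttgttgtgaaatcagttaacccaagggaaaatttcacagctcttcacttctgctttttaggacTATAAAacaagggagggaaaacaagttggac
Il33, first window, chr19:29924863-29925112, plus strand: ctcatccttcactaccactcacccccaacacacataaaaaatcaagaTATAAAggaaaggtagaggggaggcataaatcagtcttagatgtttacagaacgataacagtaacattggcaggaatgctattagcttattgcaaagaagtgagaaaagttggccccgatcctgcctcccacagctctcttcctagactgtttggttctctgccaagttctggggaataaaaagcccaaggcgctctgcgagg
Il33, second window, chr19:29945540-29945789, plus strand: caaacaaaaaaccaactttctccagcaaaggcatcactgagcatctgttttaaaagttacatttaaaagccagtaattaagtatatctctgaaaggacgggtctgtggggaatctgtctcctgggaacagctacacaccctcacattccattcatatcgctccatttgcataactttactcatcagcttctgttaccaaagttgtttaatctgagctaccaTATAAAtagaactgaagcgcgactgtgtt
Il1a held TATAAA from 32 bases and TGANTCA from 12 bases before the start, and Il1b held TATAAA from 31 bases before it. Among 32851 mouse promoter windows of the same length, 12.4% held TATAAA, 6.75% held TGANTCA and 3.9% held the NF-kB consensus. Of the other member windows, Il1rn held TGANTCA from 141 bases in 1 of 3, Il18 held TATAAA on the opposite strand from 175 bases, and the NF-kB consensus stood on the opposite strand in 1 of 2 windows of Nlrp3 (from 186 bases) and of Il1r1 (from 232 bases). The 3 windows of Il18r1 held none of these letters.

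Values are log2 ratios of leukocyte RNA to a universal mouse reference RNA, so a level can be compared between groups for 1 gene but not between genes. The deposited ratios were taken as log10 because of their size, with no source stating the base, and each array had a ratio for between 15661 and 16119 probes. Read as log2, every difference given here would be smaller by a factor of 3.3219 and the tests would be the same. Arrays of a group are labelled as biological replicates, with no number of mice given for any of them. The p-values therefore cover the spread between these arrays alone, and 2 arrays per group limit all precision. Sex-linked transcripts differed between the 2 RagKO silica arrays and between groups. Xist read -1.87 and 1.87 in RagKO silica (replicates 1 and 2), -1.59 and -1.72 in RagKO saline, 0.54 and 0.23 in WT silica, and -0.04 and -0.18 in WT saline. The Y-linked Eif2s3y read 2.42 and -2.22 in RagKO silica, 2.90 and 2.60 in RagKO saline, 0.34 and 1.05 in WT silica, and 2.32 and 2.27 in WT saline. The silica and genotype comparisons thus carry a difference in these transcripts too, and its part in the results was not tested. Where leaving out 1 RagKO silica array changes the call of 1 of the 8 genes, the value without it is given. The ratio for Rn28s1, a probe of 28S ribosomal RNA, was 0.86 and 0.59 in RagKO silica, 2.43 and 2.08 in RagKO saline, 2.17 and 2.45 in WT silica, and 3.67 and 3.71 in WT saline. Rag1 was not analysed here, so the deleted gene gives no check of the labels, but the T cell receptor component gene Cd3d, with a value on 7 arrays, lay between -0.11 and 0.15 on RagKO arrays and between 5.31 and 5.88 on WT arrays. The probe of its partner gene Cd3e, also with a value on 7 arrays, did not separate the genotypes (-0.32 to 0.14 on RagKO arrays and -0.21 to 0.11 on WT arrays).

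Il1a, which encodes the alarmin IL-1α, was the gene of the 8 that silica raised most in RagKO leukocytes. Its log2 ratios were 3.42 and 3.81 in RagKO silica and 1.25 and 1.46 in RagKO saline, and in WT mice 2.28 and 1.95 after silica and 1.49 and 1.45 after saline. The saline groups overlapped, and both silica arrays of each genotype lay above the saline arrays of that genotype. Silica raised Il1a 4.80-fold in RagKO (log2 difference 2.26, SE 0.16, adjusted p = 2.61e-05 by limma) and 1.57-fold in WT (0.65, SE 0.16, adjusted p = 0.0182). Leaving out 1 RagKO silica array, the RagKO rise was 2.07 (replicate 2 left out) and 2.46 (replicate 1 left out), with adjusted p of 0.000172 and 0.000117. The WT rise did not pass the test without WT saline replicate 1 (0.66, adjusted p = 0.0808), WT saline replicate 2 (0.63, adjusted p = 0.1) or WT silica replicate 1 (0.48, adjusted p = 0.102), nor after quantile normalization (0.51, adjusted p = 0.076). The rise in RagKO was larger than that in WT by 1.62 (SE 0.22, adjusted p = 0.000887). RagKO therefore exceeded WT after silica (1.50, adjusted p = 2.56e-05), and after saline the difference was -0.12 (95% interval -0.47 to 0.24).

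Il1b, whose product IL-1β is the main inflammasome-processed form of IL-1, did not rise with silica. It read 7.31 and 7.19 in RagKO silica and 7.37 and 7.34 in RagKO saline, against 7.72 and 7.61 in WT silica and 8.00 and 8.10 in WT saline. The WT saline arrays were the highest and no RagKO array reached a WT array. In WT the silica group was 1.31-fold lower (-0.39, SE 0.11, adjusted p = 0.03), a call lost when any 1 of the 4 WT arrays was left out (adjusted p from 0.0516 to 0.216). In RagKO the difference was -0.11 (95% interval -0.35 to 0.13, adjusted p = 0.459). RagKO was lower than WT after silica (-0.42, adjusted p = 0.00732) and after saline (-0.70, adjusted p = 0.000238). Neutrophils are a leukocyte known to carry much Il1b RNA, and 9 neutrophil markers were measured. Their mean log2 ratio was 3.55 and 3.55 in RagKO silica, 3.78 and 3.86 in RagKO saline, 3.89 and 3.76 in WT silica, and 3.99 and 4.10 in WT saline. Of these 9, 5 were lower and 2 higher in RagKO than in WT after silica (3 and 2 without RagKO silica replicate 1, 3 and 1 without replicate 2), and likewise 5 and 2 after saline (medians -0.49 and -0.48). With silica in WT 3 fell, among them S100a8, a calgranulin gene (-1.03), and 1 rose, the lactoferrin gene Ltf (1.37). Ltf was also 1.64 higher in RagKO than in WT after saline, unlike Il1b. In RagKO 4 of the 9 fell and 2 rose with silica (median -0.42), while Il1b differed by -0.11. With silica 11.5% of all genes rose and 8.21% fell in WT, and 16.8% and 15.9% in RagKO. The shares of the 9 that rose are thus near the background. Of all genes, 26.4% were lower and 33.7% higher in RagKO than in WT after silica, and 29.2% and 37% after saline. The part of neutrophils in the Il1b result was not tested. Il1b ranked 4 to 6 among the 11597 gene ratios of its arrays, where quantile normalization forces nearly the same value on every array, and under it neither genotype difference passed (-0.15, adjusted p = 0.279 after silica and -0.22, adjusted p = 0.116 after saline) and the WT silica difference was 0.

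Il1rn, the gene of the IL-1 receptor antagonist, passed the test in 0 of the 5 comparisons by limma, and also in 0 at an unadjusted p below 0.05. It read 4.05 and 3.91 in RagKO silica, 4.22 and 4.03 in RagKO saline, 4.66 and 4.32 in WT silica, and 4.10 and 5.12 in WT saline. The 2 WT saline arrays were the most distant pair, with both WT silica arrays and 1 RagKO saline array between them, and the spread of that pair enters every test of the gene. Without WT saline replicate 1, the lower of the pair, RagKO was lower than WT after saline by -0.99 (adjusted p = 0.00112). After silica the difference between RagKO and WT was -0.51, with a limma adjusted p of 0.12 over the 8 arrays, 0.0149 without either WT saline array and 0.0196 in a fit of the silica arrays alone.

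**Figure D1:**
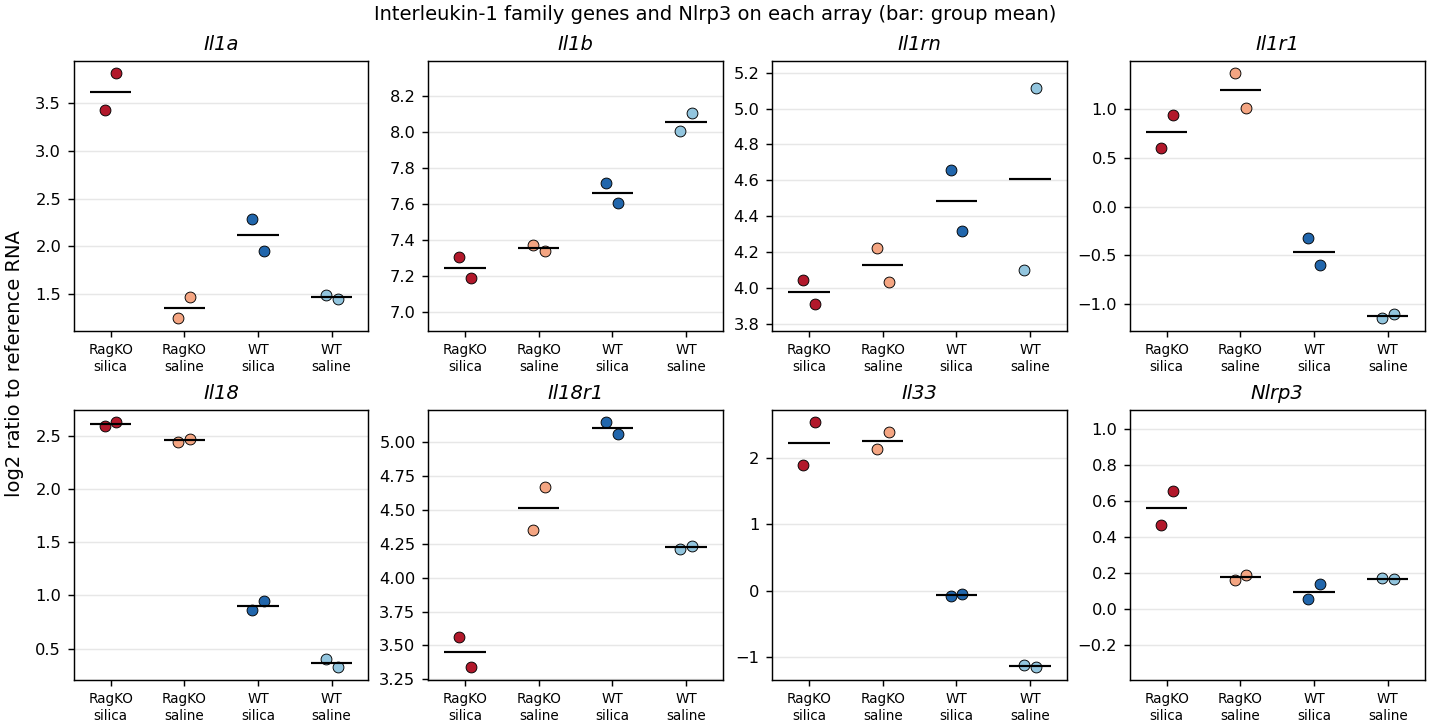
Log2 ratio to reference RNA (vertical axes, each with its own range) of the 8 genes on the 8 arrays, by group. Points are arrays and bars group means of 2 arrays. Il1a is highest in RagKO silica, at 3.42 and 3.81, and Il33 and Il18 are higher on every RagKO array than on any WT array.

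Il1r1, encoding the signalling receptor for both forms of IL-1, was higher in RagKO and responded to silica in WT. Its log2 ratios were 0.60 and 0.94 in RagKO silica and 1.37 and 1.02 in RagKO saline, against -0.32 and -0.60 in WT silica and -1.15 and -1.10 in WT saline. All RagKO arrays lay above all WT arrays, and the silica and saline arrays of a genotype did not overlap. RagKO exceeded WT 4.99-fold after saline (2.32, SE 0.16, adjusted p = 9.29e-07) and 2.35-fold after silica (1.23, SE 0.16, adjusted p = 9.99e-05). Silica gave a difference of -0.42 in RagKO (95% interval -0.78 to -0.07, adjusted p = 0.0673), which passed without RagKO silica replicate 2 (-0.59, adjusted p = 0.0389), without RagKO saline replicate 2 (-0.60, adjusted p = 0.0407) and after quantile normalization (-0.55, adjusted p = 0.0253), and a rise of 0.66 in WT (adjusted p = 0.0176). The WT rise was lost without either WT saline array or WT silica replicate 1 (adjusted p from 0.0788 to 0.0955). The silica effect was lower in RagKO than in WT by -1.08 (SE 0.23, adjusted p = 0.00726).

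Il18 encodes IL-18, an inflammasome-processed cytokine that stimulates interferon-γ production by T and NK cells. It read 2.59 and 2.62 in RagKO silica and 2.44 and 2.47 in RagKO saline, against 0.86 and 0.95 in WT silica and 0.41 and 0.32 in WT saline. Its level was thus ordered RagKO silica, RagKO saline, WT silica, WT saline, with no overlap between any 2 groups. RagKO exceeded WT 4.26-fold after saline (2.09, SE 0.10, adjusted p = 1.35e-07) and 3.26-fold after silica (1.70, adjusted p = 8.73e-07). Silica raised it in WT by 0.54 (adjusted p = 0.00582), which did not pass without WT saline replicate 2 (0.50, adjusted p = 0.0696). In RagKO the difference was 0.15 (95% interval -0.08 to 0.38, adjusted p = 0.282), and the effects in RagKO and WT differed by -0.39 (adjusted p = 0.0812), and by -0.53 after quantile normalization (adjusted p = 0.0245).

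Il18r1, the gene of the IL-18-binding receptor chain carried by NK cells, T cells and innate lymphoid cells, was the only gene of the 8 that passed in opposite directions, falling in RagKO and rising in WT. It read 3.56 and 3.34 in RagKO silica and 4.35 and 4.67 in RagKO saline, against 5.14 and 5.06 in WT silica and 4.21 and 4.23 in WT saline. The WT silica arrays were the highest and the RagKO silica arrays the lowest. Silica lowered it 2.09-fold in RagKO (-1.06, SE 0.13, adjusted p = 0.000386) and raised it 1.84-fold in WT (0.88, SE 0.13, adjusted p = 0.00174). The silica effect in RagKO was lower than that in WT by -1.94 (SE 0.19, adjusted p = 0.000168), a difference whose size exceeded that of 98.8% of genes. After silica RagKO was 3.14-fold lower than WT (-1.65, adjusted p = 4.72e-06), and after saline the difference was 0.29 (95% interval -0.01 to 0.58, adjusted p = 0.0774), which passed without RagKO saline replicate 1 (0.45, adjusted p = 0.0213) and after quantile normalization (0.43, adjusted p = 0.0116).

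NK cell markers were lower in RagKO than in WT with either exposure. Over 7 measured NK cell markers the mean log2 ratio was 2.53 and 2.03 in RagKO silica, 2.47 and 2.50 in RagKO saline, 4.46 and 4.47 in WT silica and 3.91 and 3.88 in WT saline. Of these 7 genes, 1 rose and 3 fell with silica in RagKO, and 3 rose with 0 falling in WT (limma; at an unadjusted p below 0.05, 0 fell). Without RagKO silica replicate 1, 0 rose and 4 fell in RagKO, and without replicate 2, 2 rose and 3 fell; with either left out 5 rose in WT. The granzyme gene Gzma differed by -0.98 in RagKO and 0.97 in WT, and the NK1.1 gene Klrb1c by -0.91 and 0.80. The 1 that rose in RagKO was Il2rb (0.70, and 0.57 in WT), and Ctsw differed by 0.09 and -0.03. By limma the silica effect was lower in RagKO than in WT for 3 of the 7 and greater for 0 (0 also at an unadjusted p below 0.05). Of all genes, 16.8% rose and 15.9% fell with silica in RagKO, and 11.5% and 8.21% in WT. After saline 6 of the 7 NK markers and all 6 measured T cell markers were lower in RagKO than in WT, while Il18r1 was at 4.35 and 4.67 against 4.21 and 4.23. Of all genes, 29.2% were lower and 37% higher in RagKO than in WT after saline. Of 4 measured mast cell and basophil markers, 1 rose and 2 fell with silica in RagKO, and 2 rose and 0 fell in WT (limma; at an unadjusted p below 0.05, 0 fell). The chymase gene Cma1 fell in RagKO (-0.91) and rose in WT (0.63), whereas Kit, the stem cell factor receptor gene, rose in both (0.57 and 0.65). Unlike the NK and T cell markers, 2 of these 4 were higher in RagKO than in WT after saline (Kit 1.08, and the carboxypeptidase gene Cpa3 1.07) and 0 lower (0 at an unadjusted p below 0.05). With only 4 genes, the share that was higher cannot be told from the 37% of all genes. The part of these cells in the Il18r1 result was not tested. Il18rap, the gene of the second chain of the same receptor and the neighbour of Il18r1 on chromosome 1, passed in 0 of 5 comparisons by limma, with 1 at an unadjusted p below 0.05. It read 0.51 and 0.28 in RagKO silica, 0.43 and 0.28 in RagKO saline, 0.53 and 0.71 in WT silica and 0.28 and 0.27 in WT saline. Il18bp, encoding the soluble protein that neutralises IL-18, rose with silica in RagKO (0.79, adjusted p = 0.00426) and had a difference of -0.17 in WT (adjusted p = 0.494), a difference between the effects of 0.95 (adjusted p = 0.012).

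Il33, the gene of the alarmin that activates group 2 innate lymphoid cells and mast cells, showed the greatest genotype difference of the 8 genes. Its log2 ratios were 1.90 and 2.53 in RagKO silica and 2.13 and 2.39 in RagKO saline, against -0.08 and -0.05 in WT silica and -1.11 and -1.15 in WT saline. The RagKO groups overlapped each other, and both stood above WT silica, which stood above WT saline. RagKO exceeded WT 10.5-fold after saline (3.39, SE 0.18, adjusted p = 2.09e-07), a difference greater in size than that of 99.5% of genes, and 4.86-fold after silica (2.28, SE 0.18, adjusted p = 4.54e-06). Silica raised Il33 2.10-fold in WT (1.07, SE 0.18, adjusted p = 0.00325) and gave a difference of -0.04 in RagKO (95% interval -0.45 to 0.36, adjusted p = 0.879). The 2 effects differed by -1.11 (SE 0.26, adjusted p = 0.0119). No probe of the IL-33 receptor gene Il1rl1 was analysed here.

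As lists, markers of epithelium, fibroblasts and smooth muscle rose with silica in WT and were higher in RagKO after saline, as did Il33, Il1r1 and Il18. Endothelium markers were not higher in RagKO as a list. In these bulk samples fewer cells of a type and less RNA per cell cannot be told apart. Over 15 measured epithelium markers the mean log2 ratio was 2.74 and 2.59 in RagKO silica, 2.96 and 3.01 in RagKO saline, 2.54 and 2.74 in WT silica and 1.76 and 1.87 in WT saline. Over 11 fibroblast and smooth muscle markers it was 1.40 and 1.19 in RagKO silica, 1.43 and 1.43 in RagKO saline, 1.05 and 0.77 in WT silica and 0.19 and 0.19 in WT saline. Both lists were thus lowest in WT saline, as were Il33, Il1r1 and Il18. With silica in WT, 11 of 15 epithelium markers rose and 1 fell (Slc34a2 1.73, Cdh1 1.38), and 8 of 11 fibroblast and smooth muscle markers rose. The shares over all genes were 11.5% raised and 8.21% lowered in WT, and 16.8% and 15.9% in RagKO. In RagKO 0 epithelium markers rose and 5 fell (Krt18 -0.60), with 1 rising at an unadjusted p below 0.05; without RagKO silica replicate 2, 1 rose and 3 fell. In RagKO 3 fibroblast and smooth muscle markers rose and 7 fell (2 and 7 without RagKO silica replicate 1). RagKO exceeded WT after saline in 11 of 15 and 8 of 11 genes of these lists and was lower in 2 and 3. Among these 3 was the collagen gene Col3a1 (-1.81), which rose with silica in RagKO (1.89) and in WT (0.65). Over 9 endothelium markers the mean was 2.91 and 2.88 in RagKO silica, 2.79 and 2.93 in RagKO saline, 3.31 and 3.42 in WT silica and 3.04 and 3.06 in WT saline. Of these 9, 3 were higher and 5 lower in RagKO than in WT after saline (median -0.37), and 2 higher and 5 lower after silica. Among all genes 37% were higher and 29.2% lower after saline, so the share of the 9 that was higher then is near the background. After silica these shares were 33.7% and 26.4%. With silica 2 rose and 2 fell in RagKO (1 and 1 without RagKO silica replicate 1), and 5 rose and 1 fell in WT.

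The labelled cell type was checked with pan-leukocyte markers. Over 8 such markers the mean log2 ratio was 2.40 and 2.34 in RagKO silica, 1.74 and 1.72 in RagKO saline, 2.58 and 2.47 in WT silica and 2.86 and 2.80 in WT saline. After saline 7 of 8 were lower in RagKO than in WT, where 29.2% of all genes were lower and 37% higher. The differences were uneven, with a list median of -0.68, Laptm5 at -4.86 and Cd53 higher in RagKO by 0.99. Leukocyte transcripts were thus present on all arrays together with those of structural cells. Across the saline groups the list mean ran in the opposite order to Il33, but other comparisons did not show this. After silica the list had a median difference of 0.03 between RagKO and WT, with 2 genes higher and 2 lower, while Il33 was 2.28 higher. Of all genes 33.7% were then higher and 26.4% lower. With silica in RagKO the list median was 0.61, while Il33 differed by -0.04. The part of structural cells in the results for Il33, Il1r1 and Il18 was not tested. After silica Il33, Il18 and Il1r1 were 2.28, 1.70 and 1.23 higher in RagKO than in WT. The epithelium list then had a median difference of -0.11, with 6 genes higher and 6 lower. That median was -0.19 without RagKO silica replicate 1 and 0.0045 without replicate 2. The fibroblast and smooth muscle list had a median of 0.58. With silica in RagKO the medians of the epithelium list and the fibroblast and smooth muscle list were -0.345 and -0.60, while Il33, Il18 and Il1r1 differed by -0.04, 0.15 and -0.42.

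**Figure D2:**
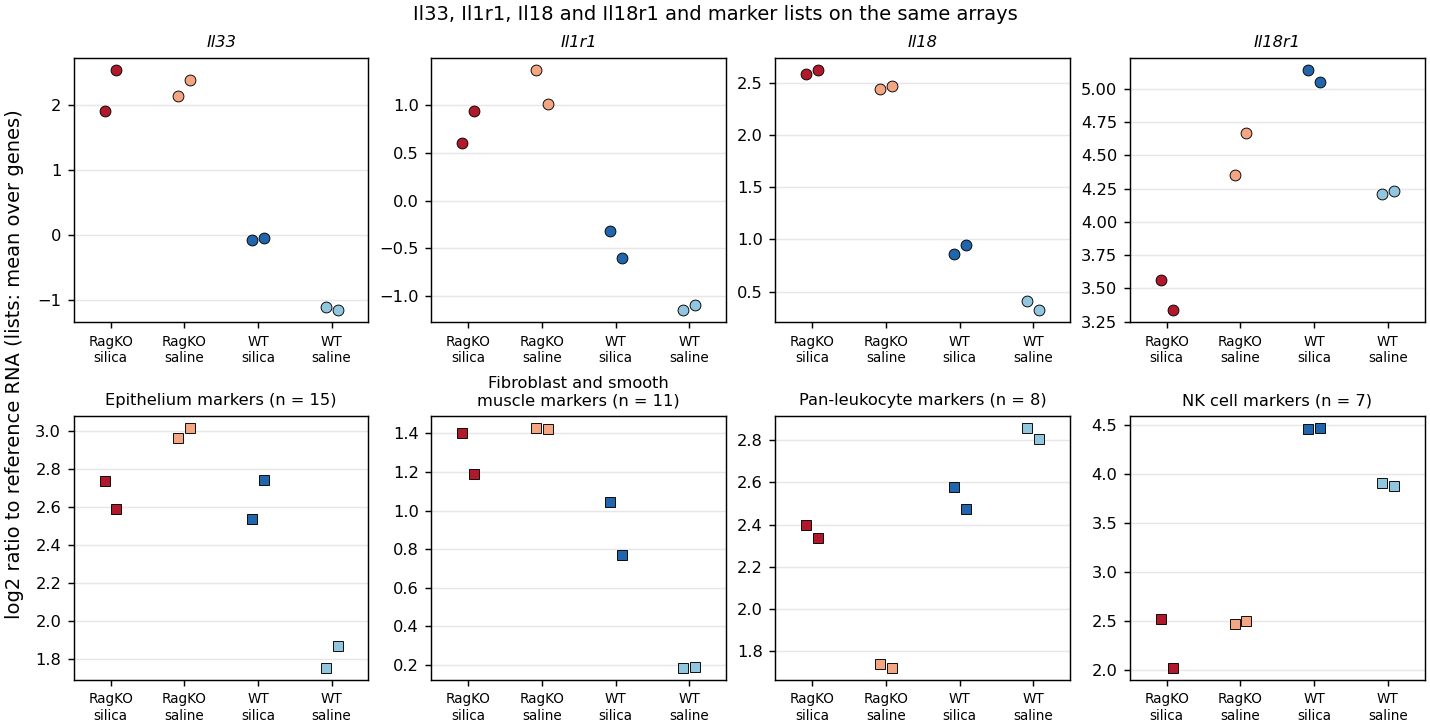
Log2 ratio to reference RNA of Il33, Il1r1, Il18 and Il18r1 (circles, upper row) and the mean log2 ratio of 4 marker lists (squares, lower row) on the same 8 arrays, with n the number of measured markers. The means of the epithelium list and of the fibroblast and smooth muscle list are lowest in WT saline, as are Il33, Il1r1 and Il18. Single markers of these lists can differ from the mean. Il18r1 and the mean of the NK cell list are both highest in WT silica.

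Nlrp3, encoding the sensor that silica activates, varied least, with 4 group means that spanned 0.47. It read 0.47 and 0.66 in RagKO silica and 0.16 and 0.19 in RagKO saline, against 0.05 and 0.14 in WT silica and 0.17 and 0.16 in WT saline. Only the RagKO silica arrays stood above the others. Silica raised it 1.31-fold in RagKO (0.39, SE 0.11, adjusted p = 0.0221), but not past the threshold without RagKO silica replicate 2 (0.29, adjusted p = 0.106), RagKO saline replicate 1 (0.37, adjusted p = 0.077) or RagKO saline replicate 2 (0.40, adjusted p = 0.0532), nor in a fit of the RagKO arrays alone (adjusted p = 0.0597). In WT the difference was -0.07 (95% interval -0.32 to 0.17, adjusted p = 0.676). RagKO exceeded WT after silica by 0.47 (adjusted p = 0.00408), and after saline the difference was 0.01 (95% interval -0.24 to 0.25). The effects in RagKO and WT differed by 0.46 (adjusted p = 0.0557), which passed without RagKO silica replicate 1 (0.56, adjusted p = 0.0403), after median centring (0.48, adjusted p = 0.0488) and after quantile normalization (0.48, adjusted p = 0.049).

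Counted together, silica raised 2 of the 8 genes in RagKO (Il1a, Nlrp3) and lowered 1 (Il18r1), where 32.7% of all 11597 genes passed, 16.8% raised and 15.9% lowered. In WT it raised 5 (Il1a, Il1r1, Il18, Il18r1, Il33) and lowered 1 (Il1b), where 19.7% of all genes passed, 11.5% raised and 8.21% lowered. RagKO exceeded WT after silica in 5 genes (Il1a, Il1r1, Il18, Il33, Nlrp3) and was lower in 2 (Il1b, Il18r1), where 60.1% of all genes passed, 33.7% higher and 26.4% lower. After saline RagKO was higher in 3 (Il1r1, Il18, Il33) and lower in 1 (Il1b), where 66.2% of all genes passed, 37% higher and 29.2% lower, so the share of the 8 that was higher is near the background. The silica effect in RagKO was greater than in WT for 1 gene (Il1a) and lower for 3 (Il1r1, Il18r1, Il33), where 23.3% of all genes passed, 11% greater and 12.3% lower. The median difference over the 8 genes was -0.08 with silica in RagKO and 0.59 in WT, beside -0.03 and -0.01 over all genes. The 2 silica effects rest on different arrays, whereas comparisons that share a group share its arrays.

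**Figure D3:**
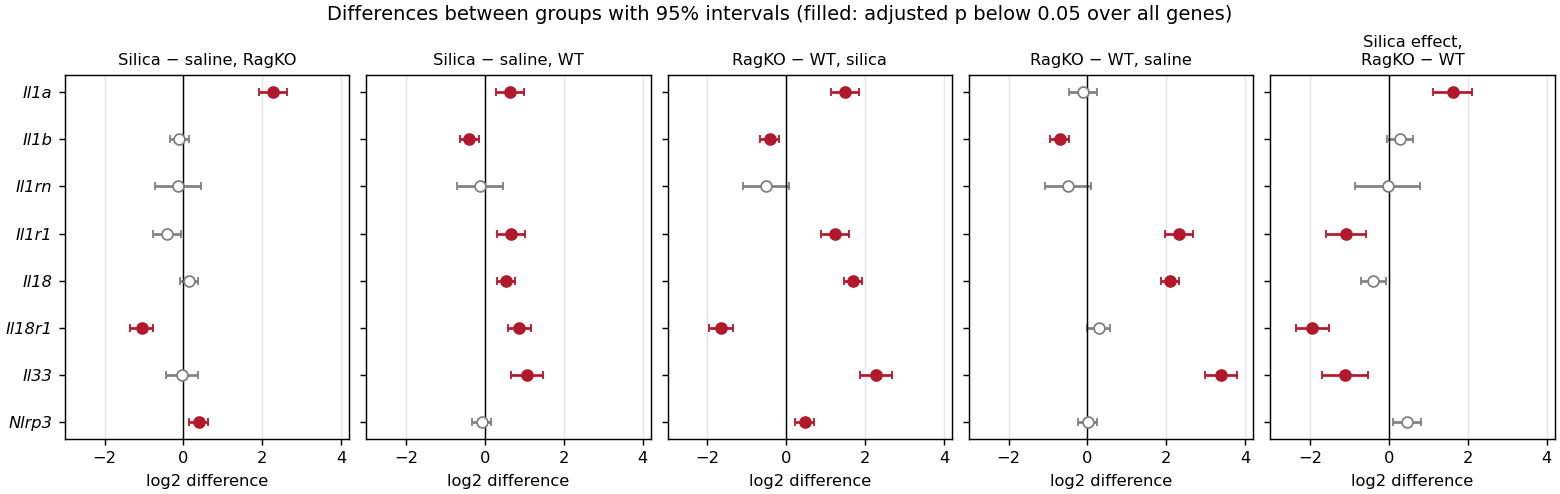
Log2 differences (horizontal axes) of the 8 genes with 95% intervals from limma, in 5 comparisons over 8 arrays. Filled points pass an adjusted p of 0.05 over all genes: Il18r1 falls in RagKO (-1.06) and rises in WT (0.88), while Il1rn passes in none.

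Of 5 other measured receptor genes of the family, 1 rose and 2 fell with silica in RagKO, where 16.8% of all genes rose and 15.9% fell. In WT 0 rose or fell by limma (1 higher and 0 lower at an unadjusted p below 0.05), where 11.5% of all genes rose and 8.21% fell. Il1r2, the gene of the decoy receptor that binds IL-1 without signalling, read 5.08 and 4.81 in RagKO silica and 6.25 and 5.76 in RagKO saline, against 5.39 and 5.18 in WT silica and 5.52 and 5.71 in WT saline. It fell with silica in RagKO (-1.06, adjusted p = 0.00146) and had a difference of -0.33 in WT (adjusted p = 0.199), with no call for the difference between the effects (-0.73, adjusted p = 0.0523). Of the 9 neutrophil markers 4 fell with silica in RagKO, among them S100a8 (-1.46) and Retnlg (-0.70), and 2 rose (Csf3r 0.63, Cxcr2 0.45). The list median was -0.42, with -0.44 without RagKO silica replicate 1 and -0.60 without replicate 2. The part of neutrophils in the Il1r2 result was not tested. Il1rap, the gene of the accessory chain that Il1r1 needs to signal, was higher in RagKO after silica (1.14, adjusted p = 2.99e-05) and after saline (1.03, adjusted p = 3.56e-05), as Il1r1 was, with silica effects of 0.09 in RagKO and -0.01 in WT. Sigirr, the gene of an inhibitory receptor of the family, was lower in RagKO after silica (-1.22, adjusted p = 1.32e-05) and after saline (-0.76, adjusted p = 0.000193). Il1rl2, the IL-36 receptor gene, rose in RagKO by 0.50 (adjusted p = 0.0291), a call lost without either RagKO silica array, which leaves 0 receptor genes rising. Of the 2 other ligand or antagonist genes measured, the IL-36γ gene Il1f9 rose with silica in RagKO (0.58, adjusted p = 0.0238) and differed by 0.14 in WT (adjusted p = 0.605) (without RagKO silica replicate 1, 0.47 in RagKO, adjusted p = 0.136).

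Of 14 measured genes of inflammasome assembly and IL-1 release, 5 rose and 1 fell with silica in RagKO (6 and 1 without RagKO silica replicate 2), and 2 rose and 0 fell in WT (4 lower at an unadjusted p below 0.05), with medians of 0.32 and 0.04. The silica effect in RagKO was greater than in WT for 4 and lower for 2 (3 and 1 without RagKO silica replicate 1). Silica raised 16.8% and lowered 15.9% of all genes in RagKO, and 11.5% and 8.21% in WT, so the share of the 14 raised in WT is near the background. Its effect was greater in RagKO for 11% of all genes and lower for 12.3%. Casp1, the gene of the protease that cuts IL-1β and IL-18, read 1.59 and 1.86 in RagKO silica and 0.88 and 1.13 in RagKO saline, against 0.94 and 0.70 in WT silica and 1.22 and 1.12 in WT saline. It rose in RagKO (0.72, adjusted p = 0.0039), differed by -0.35 in WT (adjusted p = 0.112), and the effects differed by 1.07 (adjusted p = 0.0041). Casp8, a caspase of cell death that can also process IL-1β, rose 1.09 in RagKO (adjusted p = 0.000133) against a difference of 0.01 in WT (adjusted p = 0.963). Casp4, encoding the mouse caspase-11 of the non-canonical pathway, rose 0.47 in RagKO (adjusted p = 0.00948) and differed by -0.33 in WT (adjusted p = 0.0585), and the pore-forming gasdermin gene Gsdmd rose 0.55 in RagKO (adjusted p = 0.00348) and differed by 0.11 in WT (adjusted p = 0.494). Pycard, the gene of the adaptor ASC that links NLRP3 to caspase-1, passed in 0 of 5 comparisons by limma, with 2 at an unadjusted p below 0.05. Txnip, which encodes a thioredoxin-binding protein, rose in WT (0.79, adjusted p = 0.00133) and differed by -0.18 in RagKO (adjusted p = 0.235). Panx1, a channel gene, was lower in RagKO than in WT after silica (-1.05, adjusted p = 0.00101) and after saline (-1.70, adjusted p = 2.85e-05). Monocyte and macrophage markers also rose with silica in RagKO, as Casp1, Casp8, Casp4 and Gsdmd did, but not Txnip. Of 10 such markers 6 rose in RagKO (4 without RagKO silica replicate 2), with a list median of 0.635. In WT 1 rose and 2 fell (2 and 2 without either RagKO silica array), with a median of 0.03. The list means were 3.70 and 3.77 in RagKO silica, 3.01 and 3.02 in RagKO saline, 3.38 and 3.03 in WT silica and 3.23 and 3.15 in WT saline. Among pan-leukocyte markers, by limma 5 of 8 rose and 0 fell with silica in RagKO, and 0 rose and 4 fell in WT. The silica effect was greater in RagKO than in WT for 6 of these 8 and lower for 0. Each of these counts of 0 was also 0 at an unadjusted p below 0.05. The part of macrophages, or of leukocytes as a whole, in the caspase and Nlrp3 results was not tested.

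Of 17 measured signalling genes downstream of the IL-1 receptor, 7 rose and 1 fell with silica in RagKO (6 and 0 without RagKO silica replicate 1, 8 and 1 without replicate 2), and 2 rose and 1 fell in WT (3 and 1 without either). Among all genes 16.8% rose in RagKO and 11.5% in WT, so the share of the 17 that rose in WT is near the background. Irak2, a kinase gene of the receptor complex, rose in RagKO (1.12, adjusted p = 0.000931) and in WT (0.56, adjusted p = 0.0403). Irak3, the gene of an inhibitor of that complex, rose in WT (0.54, adjusted p = 0.0367) and differed by -0.29 in RagKO (adjusted p = 0.173), with a difference between the effects of -0.83 (adjusted p = 0.0222) that did not pass without RagKO silica replicate 1 (-0.81, adjusted p = 0.0592). The adaptor gene Myd88 rose 0.46 in RagKO (adjusted p = 0.00742) and differed by 0.16 in WT (adjusted p = 0.302).

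Genes that IL-1 is known to induce rose with silica in both genotypes. Of 17 measured, 13 rose and 1 fell in RagKO (median 1.25), and 14 rose and 0 fell in WT (median 1.09; 0 lower at an unadjusted p below 0.05), where 16.8% and 11.5% of all genes rose. In RagKO 12 rose and 1 fell without RagKO silica replicate 1, and 11 and 1 without replicate 2. The neutrophil chemokine gene Cxcl1 rose 1.36 in RagKO (adjusted p = 0.000739) and 2.22 in WT (adjusted p = 0.00011), and Cxcl5 rose 2.57 in RagKO (adjusted p = 1.26e-05) and 1.33 in WT (adjusted p = 0.000481). The acute-phase gene Saa3 rose 3.76 in RagKO (adjusted p = 9.65e-05), and differed by -0.38 in WT (adjusted p = 0.489), where its arrays read -0.29 and -1.69 after silica and -0.52 and -0.71 after saline. The cytokine gene Il6 rose in WT (1.22, adjusted p = 0.000681) and differed by 0.13 in RagKO (adjusted p = 0.54), where it read 4.06 and 3.99 after silica and 3.91 and 3.88 after saline, above 3.46 and 2.94 in WT silica and 1.95 and 2.01 in WT saline. Other cytokines induce many of these genes too, so their counts do not measure IL-1 activity. Of 6 measured genes induced by IL-18 or IL-33, 4 rose and 0 fell with silica in RagKO (1 lower at an unadjusted p below 0.05), and 5 rose and 1 fell in WT. The shares over all genes were 16.8% raised and 15.9% lowered in RagKO, and 11.5% and 8.21% in WT. In RagKO 2 rose and 2 fell without RagKO silica replicate 1, and 3 rose and 0 fell without replicate 2. The interferon-γ gene Ifng, a target of IL-18, read 2.68 and 1.74 in RagKO silica and 2.36 and 2.36 in RagKO saline, against 3.90 and 4.26 in WT silica and 3.18 and 3.12 in WT saline. It rose in WT (0.93, adjusted p = 0.0253) and differed by -0.15 in RagKO (adjusted p = 0.671), a difference between the effects of -1.08 (adjusted p = 0.0485) that did not pass without RagKO silica replicate 2 (-0.61, adjusted p = 0.0711). Its WT silica arrays were the highest, as were those of Il18r1. The chemokine gene Ccl24 rose in RagKO (2.16, adjusted p = 0.014) on arrays that read -0.75 and 1.53 after silica and -1.80 and -1.75 after saline, and fell in WT (-3.49, adjusted p = 0.00216); without RagKO silica replicate 2 the RagKO difference was 1.02 (adjusted p = 0.0235), and without replicate 1 it was 3.30 (adjusted p = 0.000285).

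**Figure D4:**
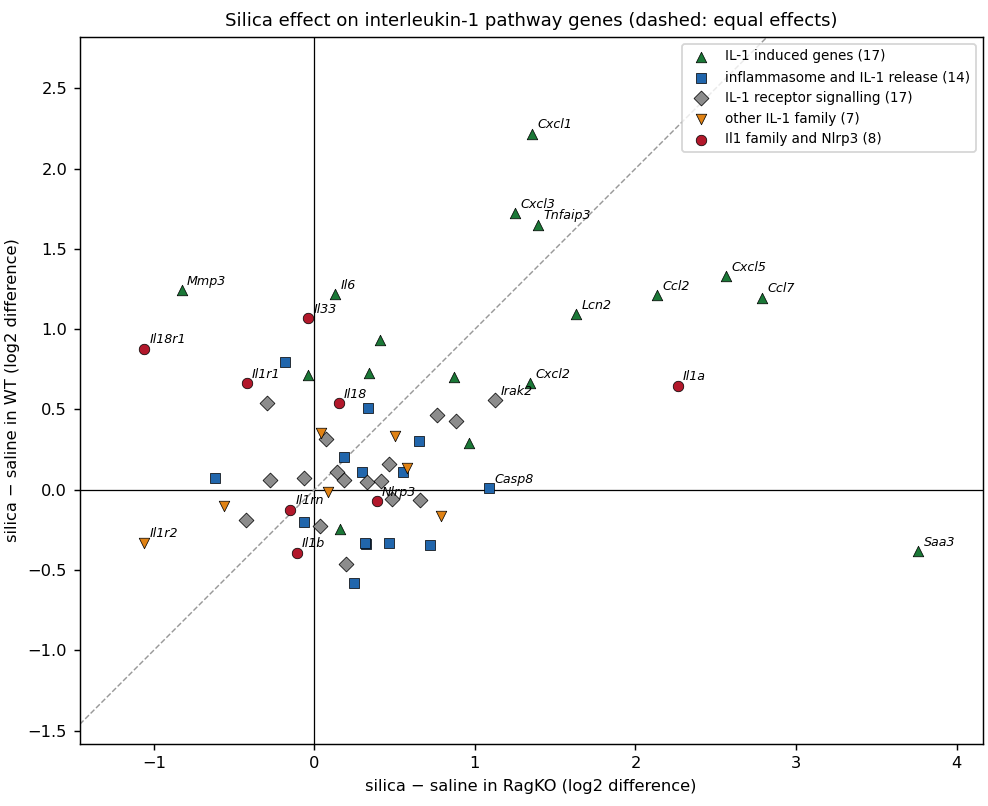
Log2 difference between silica and saline in RagKO (horizontal axis) against that in WT (vertical axis) for the 8 genes and 55 other genes (IL-1 induced, inflammasome, signalling and other family genes); the dashed line marks equal effects, and genes beyond 1 in either genotype and the 8 genes are named. Il1a (2.26 in RagKO, 0.65 in WT) lies right of the line and Il33 (-0.04 in RagKO, 1.07 in WT) and Il18r1 (-1.06 in RagKO, 0.88 in WT) left of it.

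The genes whose values followed each of the 8 most closely over the 8 arrays were found by the root mean square difference between log2 ratios, each gene centred on its own mean, among all 11597 genes. This was done for the 5 genes whose group means spanned at least 1, which left out Il1b, Il1rn and Nlrp3 (spans of 0.81, 0.63 and 0.47). The closest to Il1a were the interferon-inducible genes Rtp4 and Oas1f (0.16 and 0.17) and the lectin gene Asgr2 (0.24). The closest to Il1r1 were C1qtnf7 (0.13), the endothelial gene Ecscr (0.15) and Kidins220 (0.15). Those closest to Il18 were the tight junction gene F11r, Rgs2 and the calmodulin gene Calm2 (0.11, 0.11 and 0.12). Il18r1 was followed by the mast cell chymase gene Cma1 (0.24), Calml3 (0.25) and the NK receptor gene Klra23 (0.26), whose family shares sequence. Il33 was followed by Mfsd14b (0.23), the smooth muscle kinase gene Mylk (0.25) and Dync2li1 (0.27).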

How the data were processed

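Agilent 2-colour arrays compared each sample's RNA with a universal mouse reference RNA, with the sample in Cy5 and the reference in Cy3 per the labels. The authors deposited 1 normalized log10 ratio of sample over reference per probe and array; the base was inferred here, since the largest ratio is 737-fold read as log10 and 7.30-fold read as log2. No source used here gives the tools and settings behind the deposited values. The 16251 probes were named through the platform annotation: 14488 had 1 symbol, 10 several and 1753 none. Probes with a value on all 8 arrays (14716, of which those with 1 symbol were used) were averaged per gene to 11597 genes, and log10 ratios were multiplied by 3.3219 to give log2. A model with 4 group means over all 8 arrays was fitted in limma 3.58.1 (R 4.3.3), with Benjamini-Hochberg adjustment over all genes and a threshold of 0.05; plots were drawn with matplotlib 3.10.9. The model was tested on simulated data. Within groups, arrays correlated at r from 0.977 to 0.989 across probes, which are not independent replicates. Spot intensities, slides and scan times were not analysed here, so background and batches were not checked.

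Genes outside the 8 were named by rule: 12 core pathway genes where measured, the up to 3 smallest p-values that passed in each list and comparison (1 where none passed), and the 3 genes closest to each of the 8. The 8 genes, the lists and the rule were chosen with earlier results of these data known. Alternatives were median centring, quantile normalization, each probe on its own, incomplete probes kept, a trended prior variance, a fit of the groups compared only, the replicate number as a block, and each array left out. List counts without each RagKO silica array were added after the sex-linked difference between these arrays was seen.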

Additional observations from a re-analysis of the deposited data

Results flagged for a closer look

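For 4 of the 8 genes the silica effect differed between RagKO and WT in limma's test of the difference itself. That difference (effect in RagKO minus effect in WT, log2) was 1.62 for Il1a, -1.08 for Il1r1, -1.94 for Il18r1 and -1.11 for Il33. It kept its direction and passed in every alternative and with every array left out for these 4 genes. Only for Il18r1 did the silica effect pass in both genotypes with opposite directions. With 2 arrays per group, no check for a single distant array within a group was possible.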

How the results depend on the processing

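Of the gene-level results for the 8 genes, 299 of those with 1 array left out kept their direction and side of the threshold, 7 newly passed and 14 no longer passed; under the other alternatives the numbers were 260, 6 and 6, and 0 reversed. With silica in RagKO, 2 genes rose and 1 fell; 1 rose in a fit of the RagKO arrays alone, and 2 fell after quantile normalization. With silica in WT, 5 rose and 1 fell; 0 fell in limma after quantile normalization (0 at an unadjusted p below 0.05) and with a trended prior variance (1 at an unadjusted p below 0.05). The gene lower in RagKO than in WT after saline was lost after quantile normalization (0, also at an unadjusted p below 0.05), which left 1 of 2 after silica. The silica effect was greater in RagKO for 2 genes, against 1, after median centring and after quantile normalization. Leaving out each array in turn gave 1 to 2 genes higher and 1 to 2 lower with silica in RagKO, 2 to 5 and 0 to 1 with silica in WT, 5 to 5 and 2 to 3 for RagKO over WT after silica, 3 to 4 and 1 to 2 after saline, and 1 to 2 and 3 to 3 for the difference between silica effects. Over all genes the calls then ranged from 2380 to 3842 (3795 with all arrays) for silica in RagKO, 861 to 2389 (2283) for silica in WT, 5736 to 7106 (6970) for RagKO over WT after silica, 6417 to 7790 (7680) after saline, and 1647 to 2485 (2697) for the difference between effects. Same-numbered arrays deviated from their group means with correlations from -0.07 to 0.11, so they shared little deviation. With 1 difference per group this does not show whether the numbers mark a batch. With the replicate number as a block, 3795 and 2244 genes passed for silica in RagKO and in WT, and the calls of the 8 genes did not change in number. Other causes of these changes were not tested, except that fewer arrays leave less to estimate the spread, and that quantile normalization fixes the top ranks where Il1b lies. Signal over background was not analysed here, so low ratios carry an unknown error.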
